A study of Homo sapiens with 6 samples.

Results

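The NRF2 antioxidant target genes considered here were 9 genes chosen by name as widely used reporters of this pathway: GCLC, GCLM, NQO1, HMOX1, TXNRD1, SRXN1, OSGIN1, ME1 and AKR1C1. They were chosen by name and not by a threshold, with earlier results of these data known. Of the 9 genes, 8 had a row among the 19491 genes of the tables, and the expression of SRXN1 was not analysed here. RNA sequencing was done on PC-3 cells, an androgen-insensitive line grown from a bone metastasis of prostate cancer. Cells were left untreated (control), or were treated with 1 mM GPNA (L-gamma-glutamyl-p-nitroanilide) or with 10 mM BenSer (H-Ser(Bzl)-OH, benzylserine) for 48 h. Both agents inhibit uptake through the glutamine transporter ASCT2, and the study asked how PC-3 gene expression responds to them. The paper proposes that BenSer also acts apart from ASCT2, and cites its inhibition of a further transporter, LAT1, in oocytes. The parts of such further targets and of dose in the BenSer differences below were not tested. Each group had 2 labelled libraries, all groups shared the same cell line and serum-containing medium, and the 2 agents were given at different doses.

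NRF2, the product of NFE2L2, is a transcription factor that switches on genes for glutathione synthesis, thioredoxin reduction, NADPH supply and the detoxification of quinones, haem and carbonyls. KEAP1 normally holds NRF2 in the cytoplasm and hands it to a CUL3 ubiquitin ligase for destruction; oxidants and electrophiles block this step, and NRF2 then binds with small MAF proteins to antioxidant response elements. Glutamine is linked to the pathway because it supplies glutamate both for glutathione itself and for the import of cystine in exchange.

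The libraries held 23077986 to 32178154 reads, of which 51.6% to 52.7% lay on the listed genes, and the BenSer libraries were the deepest. Within a group, read counts of the pair of libraries scattered almost as random sampling gives (chi-square divided by its degrees of freedom 1.05 to 1.06, where libraries of different groups gave 5.50 to 20.7). Each group therefore entered as 1 sample, no treatment difference here has a replicate test, and the intervals given cover counting error only. Levels are in CPM, the reads of a gene scaled to a fixed library total. A difference is the change in log2(mean CPM + 1), which understates the change of low genes, and a gene was called different at 1.5-fold or more on that scale. The 5 epithelial markers examined (KRT8, KRT18, KRT19, EPCAM and CDH1) and the mesenchymal marker VIM were all present, with summed levels of 1426 to 1511 CPM per library. With BenSer CDH1 was higher, at a ratio to the control of 1.41 (95% interval 1.35 to 1.46), and VIM was lower, at 0.768 (0.746 to 0.791). The other epithelial markers went both ways. KRT19 was higher, at 1.16 (1.15 to 1.18), and EPCAM was at 1.01 (0.972 to 1.05). KRT18 and KRT8 were lower, at 0.847 (0.815 to 0.879) and 0.951 (0.930 to 0.973). The part of these markers in the BenSer differences below was not tested. The 2 fibroblast markers with a row summed to 5.72 to 7.23 CPM in untreated cells, 4.24 to 4.57 after GPNA and 4.97 to 6.39 after BenSer. Of these, COL1A1 was lower with GPNA, at a ratio of 0.669 (0.552 to 0.810), and the COL3A1 interval (0.467 to 1.21) included no difference. The part of these markers in the results below was not tested. The 1 endothelial marker with a row, KDR, was at 3.08 to 3.14 CPM in untreated cells, 2.09 to 2.24 after GPNA and 3.79 to 4.32 after BenSer. KDR thus moved with the treatments and was called higher for BenSer over GPNA, at a ratio of 1.87 (1.49 to 2.36); its part in the results below was not tested. None of the 5 leukocyte markers had a row. Of 6 androgen-dependent prostate markers 3 had a row, and they summed to 18.9 to 20.8 CPM in control and GPNA libraries and to 27.4 to 27.96 CPM with BenSer; their part in the results below was not tested.

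The antioxidant response element is the DNA motif through which NRF2 acts, and RefSeq start-site windows (GRCh38.p14, 250 bases before to 50 bases after a start) were found for 8 of the 9 genes. The core TGACNNNGC was searched on both strands, together with TGACTCA, the AP-1 element that can lie inside it. The core occurred in windows of 3 of these 8 genes, GCLM, ME1 and TXNRD1, compared with 13.3% of all 35116 windows and 16.1% of the 27305 genes with a window. TGACTCA occurred in windows of 2 genes, ME1 and OSGIN1. It occurred in 4.95% of all windows, which is a share per window, and the share per gene was not computed. The stretches below lie wholly upstream of the start, read along the gene's strand, and show the match in capitals with its flanks; the first 4 are given because they hold the pathway's core motif, and OSGIN1 because it holds the AP-1 element without the core.
GCLM (chr1:93909431-93909494, minus strand, core on the opposite strand, 34 to 26 bases before the start): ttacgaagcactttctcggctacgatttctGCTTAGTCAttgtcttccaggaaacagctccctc
ME1 (chr6:83431150-83431218, minus strand, core on the gene strand, 137 to 129 bases before the start): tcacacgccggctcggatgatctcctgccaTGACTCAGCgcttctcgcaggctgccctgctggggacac
TXNRD1, first start (chr12:104215650-104215718, plus strand, core on the gene strand, 99 to 91 bases before the start): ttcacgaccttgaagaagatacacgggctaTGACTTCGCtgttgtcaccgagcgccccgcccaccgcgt
TXNRD1, second start (chr12:104286900-104286968, plus strand, core on the opposite strand, 102 to 94 bases before the start): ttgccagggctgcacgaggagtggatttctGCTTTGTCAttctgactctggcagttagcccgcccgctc
OSGIN1 (chr16:83953113-83953179, plus strand, AP-1 element on the gene strand, 97 to 91 bases before the start): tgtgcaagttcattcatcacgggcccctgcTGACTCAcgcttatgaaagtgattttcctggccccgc
Coordinates of these stretches are on GRCh38.p14, and in ME1 the AP-1 element lies inside the core. A further core match in the ME1 window and in the first TXNRD1 window did not lie wholly upstream and is not shown. No match was present in the windows of GCLC, NQO1, AKR1C1 and SRXN1, which says only that these letters are not in those 300 bases.

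In untreated cells the 8 genes differed widely in level. Per kilobase of annotated exon (GENCODE models on GRCh37), TXNRD1 was highest at 45.4 CPM, followed by NQO1 at 17.8, ME1 at 8.54, GCLC at 5.30, GCLM at 3.74, HMOX1 at 2.07, OSGIN1 at 1.09 and AKR1C1 at 0.175. The order was the same in both libraries of all 3 groups, and the libraries of neighbours in it did not overlap. The closest neighbours were GCLM at 3.19 to 3.30 and HMOX1 at 2.84 to 3.12 CPM per kilobase with BenSer, where the HMOX1 libraries lay as far apart as the 2 genes did, so these levels did not differ beyond their spread. TXNRD1 alone made up 65.6% of the summed CPM of the 8 genes in the control. AKR1C1 had only 71 reads in the merged control libraries, whereas TXNRD1 had 14092, so the lowest member carried by far the widest counting interval.

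With BenSer, 7 of the 8 genes were higher than in the control and GCLM was lower, where 44.6% of all genes were higher and 55.4% lower. The median difference of the 8 genes was 0.27 on the log2 scale, compared with -0.03 over all genes compared. AKR1C1 was the 1 gene called higher, and none was called lower, where 1.96% of all genes were called higher and 1.58% lower (2.28% and 1.13% with TMM scaling). Among genes of at least 1 CPM, a class that holds all 8, the background was 2.69% and 2.21%. Both BenSer libraries lay above both control libraries for 7 genes and below them for 1, compared with 28.5% and 37.5% of all genes. For such counts of separated libraries, here and below, the shares of all genes include genes under 1 CPM. They were not computed without those genes. With GPNA the 8 genes were evenly divided, 4 higher and 4 lower (43.3% and 56.7% of all genes), with a median of -0.03, the same as over all genes compared (-0.03). No member was called in either direction with GPNA, where 0.34% of all genes were called higher and 0.0637% lower. Both GPNA libraries lay above the control for 2 genes and below it for 3, compared with 22.4% and 34.4% of all genes. Direct comparison of BenSer with GPNA, at their different doses, gave 7 genes higher and 1 lower (47.9% and 52.1% of all genes). The median was 0.20, compared with -0.01 over all genes. OSGIN1 and AKR1C1, 2 of the 8, were called higher and none lower, where 1.05% of all genes were called higher and 0.813% lower. Both BenSer libraries lay above both GPNA libraries for 6 genes and below for 1, compared with 31.7% and 33.6% of all genes. In bulk RNA of this kind, a change in how many cells express a gene and a change in its level per cell cannot be told apart.

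**Figure D1:**
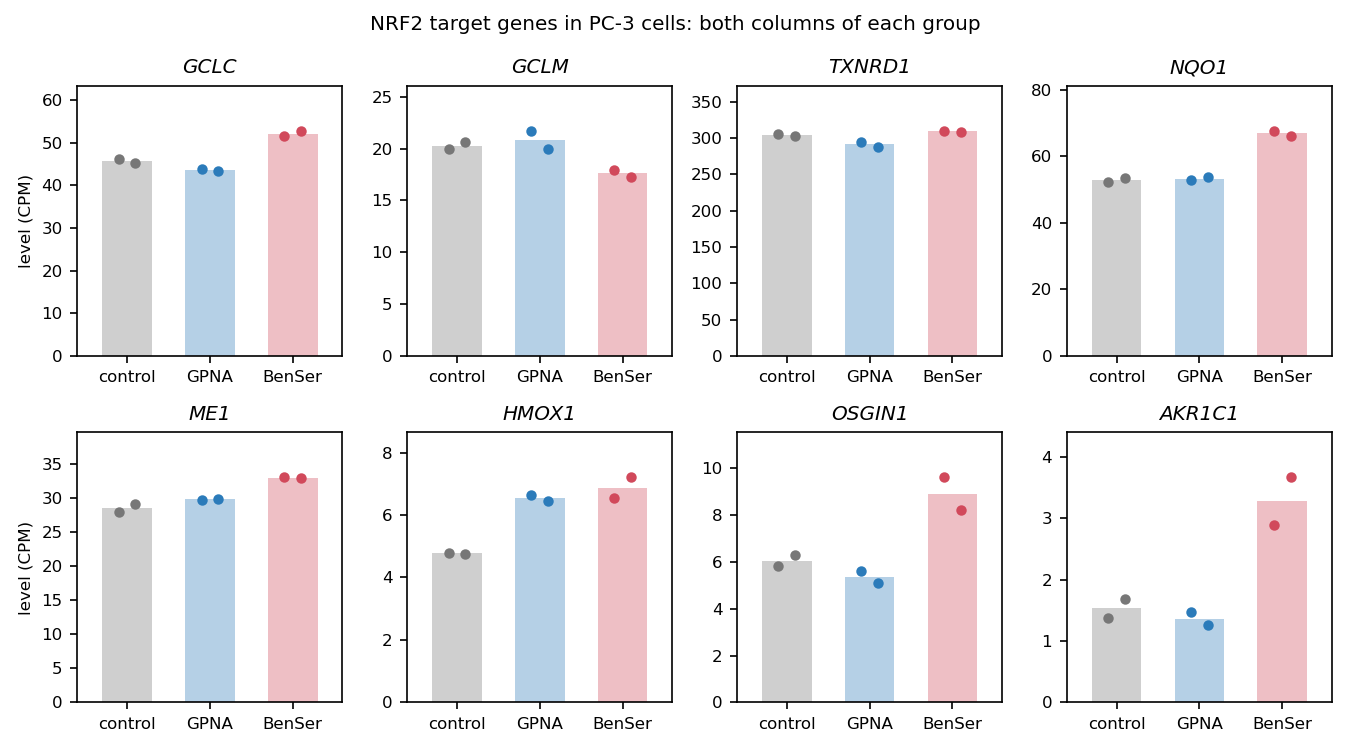
Levels of the 8 NRF2 target genes in CPM (vertical axes, starting at 0) in control, GPNA and BenSer cells; points are the 2 libraries of a group and bars their mean. Both BenSer points lie above both control points for every gene but GCLM, where both lie below, while with GPNA only HMOX1 and ME1 have both points above the control.

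The enzyme that makes the first and limiting step of glutathione synthesis, glutamate-cysteine ligase, is built from a catalytic subunit, GCLC, and a modifier subunit, GCLM. The 2 subunits went in opposite directions with BenSer. GCLC (ENSG00000001084, chr6:53362139-53481768 on GRCh37, minus strand) measured 46.1 and 45.3 CPM in untreated cells, 43.8 and 43.5 after GPNA and 51.5 and 52.8 after BenSer. The BenSer libraries were highest and the GPNA libraries lowest, with no overlap among the 3 groups. Relative to the control the ratio was 1.14 with BenSer (95% interval 1.08 to 1.20) and 0.954 with GPNA (0.898 to 1.01), so the GPNA interval included no difference. GCLM (ENSG00000023909, chr1:94350755-94375012, minus strand) measured 19.9 and 20.6 CPM in untreated cells, 21.7 and 19.96 after GPNA and 17.9 and 17.3 after BenSer. GPNA and control libraries overlapped, and both BenSer libraries were the lowest of the 6. Against untreated cells the ratio was 0.868 with BenSer (0.796 to 0.948) and 1.03 with GPNA (0.940 to 1.12). GCLC thus exceeded GCLM 2.31-fold and 2.20-fold in CPM in the control libraries, 2.02-fold and 2.18-fold with GPNA, and 2.88-fold and 3.05-fold with BenSer. These folds are not corrected for the longer exons of GCLC. Per kilobase of annotated exon GCLC and GCLM were closer, at 5.30 and 3.74 CPM in the control. With GPNA they were at 5.06 and 3.84, and with BenSer at 6.05 and 3.24. GCLM, with a response element core next to its start, exceeded 23.0% of all genes in its BenSer difference, and GCLC exceeded 83.2%. Exons of GCLC overlap those of the antisense gene GCLC-AS1 and of 1 further gene on its own strand, so part of its reads may have been set aside or shared in counting.

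The thioredoxin arm was represented by TXNRD1, the cytosolic reductase that returns thioredoxin to its reduced form with NADPH. TXNRD1 (ENSG00000198431, chr12:104609557-104744085, plus strand) measured 305.9 and 302.7 CPM in untreated cells, 294.8 and 288.1 after GPNA and 309.6 and 308.8 after BenSer. The 3 groups did not overlap, but they lay within a few percent of each other. The ratio to the control was 1.02 with BenSer (0.994 to 1.04) and 0.958 with GPNA (0.936 to 0.980), and BenSer exceeded GPNA 1.06-fold (1.04 to 1.08). As the deepest-read member it had the tightest counting interval, but its small differences depended on the scaling. On the log2 scale the BenSer difference from the control of 0.02 became 0.07 with TMM scaling and with DESeq2 size factors, and the GPNA difference of -0.06 became -0.02 with both.

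NQO1, which reduces quinones by transfer of 2 electrons and is a widely used readout of NRF2, separated BenSer from the other groups. NQO1 (ENSG00000181019, chr16:69740899-69760571, minus strand) measured 52.3 and 53.5 CPM in untreated cells, 52.8 and 53.8 after GPNA and 67.6 and 66.1 after BenSer. Control and GPNA libraries overlapped almost completely, and both BenSer libraries lay above them. The ratio was 1.26 for BenSer over control (1.20 to 1.33), 1.254 for BenSer over GPNA (1.20 to 1.32) and 1.01 for GPNA over control (0.954 to 1.06). Its BenSer difference from the control exceeded those of 93.1% of all genes compared, although it stayed below the 1.5-fold threshold. An unnamed antisense gene overlaps its exons.

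ME1, the cytosolic malic enzyme that makes NADPH from malate, showed a smaller difference. ME1 (ENSG00000065833, chr6:83920121-84140770, minus strand) measured 27.9 and 29.1 CPM in untreated cells, 29.7 and 29.9 after GPNA and 33.0 and 32.9 after BenSer. The groups did not overlap, in the order control, GPNA, BenSer. Relative to the control the ratio was 1.16 with BenSer (1.08 to 1.24) and 1.04 with GPNA (0.970 to 1.13), the latter including no difference.

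HMOX1, the inducible haem oxygenase that breaks haem down to biliverdin, iron and carbon monoxide, was the 1 member that was higher with both agents by a similar amount. HMOX1 (ENSG00000100292, chr22:35776354-35790207, plus strand) measured 4.78 and 4.77 CPM in untreated cells, 6.63 and 6.44 after GPNA and 6.56 and 7.20 after BenSer. Both treated groups lay above the control and overlapped each other. Against untreated cells the ratio was 1.37 with GPNA (1.15 to 1.63) and 1.44 with BenSer (1.22 to 1.70), and BenSer over GPNA was 1.05 (0.911 to 1.22). On the log2 scale these differences were 0.38 and 0.45, below the threshold of 0.58, and they exceeded those of 98.4% and 96.3% of all genes compared. The 2 comparisons share their control libraries, so they are not separate evidence of a difference from it. These values rest on 221 reads in the merged control, 335 with GPNA and 441 with BenSer.

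OSGIN1, an oxidative stress-induced growth inhibitor, lay lower with GPNA and higher with BenSer. OSGIN1 (ENSG00000140961, chr16:83964916-83999937, plus strand) measured 5.81 and 6.28 CPM in untreated cells, 5.62 and 5.11 after GPNA and 9.60 and 8.23 after BenSer. The GPNA libraries were the lowest and the BenSer libraries the highest, without overlap. The ratio to the control was 1.48 with BenSer (1.28 to 1.71) and 0.887 with GPNA (0.749 to 1.05), the latter including no difference. BenSer exceeded GPNA 1.66-fold (1.44 to 1.93), a log2 difference of 0.64 that passed the threshold. This call was close to the threshold: the difference was 0.58 without GPNA replicate 2 and 0.54 without BenSer replicate 1, both below it, and against the control it was 0.59, just past it, without BenSer replicate 2. Exons of OSGIN1 overlap those of MLYCD on the same strand.

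AKR1C1, an aldo-keto reductase that reduces steroids and lipid carbonyls, differed most with BenSer and was also the lowest in level. AKR1C1 (ENSG00000187134, chr10:5005445-5025475, plus strand) measured 1.38 and 1.69 CPM in untreated cells, 1.47 and 1.26 after GPNA and 2.89 and 3.66 after BenSer. Both BenSer libraries lay above the other 4, and GPNA and control overlapped. Relative to the control the ratio was 2.14 with BenSer (1.62 to 2.84) and 0.891 with GPNA (0.631 to 1.26), and BenSer over GPNA was 2.40 (1.82 to 3.19). The log2 differences of 0.76 from the control and 0.85 from GPNA both passed the threshold. With a pseudocount of 5 in place of 1 they were 0.34 and 0.38, so both calls ended, and the OSGIN1 call for BenSer over GPNA ended too (0.43). Of the 50-base windows of its transcript, 22.7% also occur in transcripts of other genes, 22.3% in AKR1C2. Part of its reads may therefore have been set aside in counting or shared with its copies. AKR1C3, a further copy in the same gene cluster and also a steroid reductase, was read more deeply, at 6.80 and 7.67 CPM in untreated cells, 9.69 and 8.88 after GPNA and 18.7 and 17.8 after BenSer. It was higher 2.52-fold with BenSer (2.23 to 2.86) and 1.28-fold with GPNA (1.11 to 1.48), and the BenSer difference passed the threshold. AKR1C2 had 5, 7 and 21 merged reads in control, GPNA and BenSer, a BenSer ratio of 3.03 with an interval as wide as 1.11 to 10.3.

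**Figure D2:**
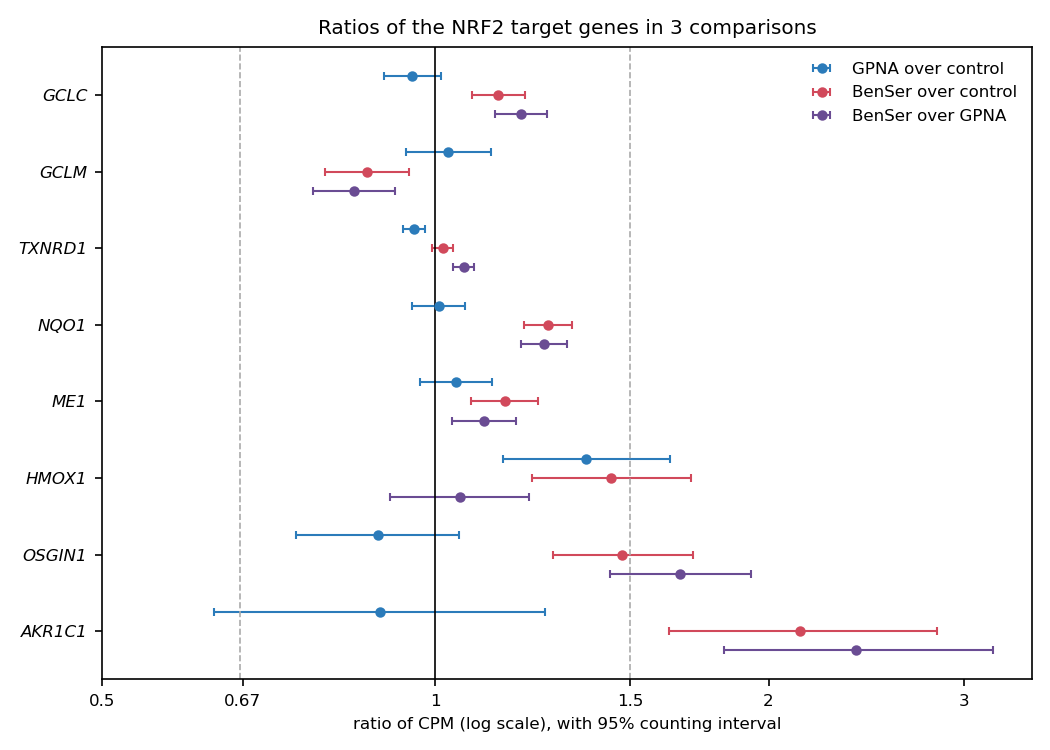
Ratio of CPM (horizontal, log scale) of each NRF2 target gene for GPNA over control, BenSer over control and BenSer over GPNA; bars are exact 95% counting intervals, and dashed lines mark 1.5-fold in each direction. AKR1C1 lies at 2.14 and 2.40 in the BenSer comparisons with the widest bars, GCLM lies below 1 in both, and with GPNA the intervals of 6 genes include 1.

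Over the 8 genes together the size of the BenSer difference followed no common fold. Summed CPM of the 8 came to 464.2 and 464.0 in untreated cells, 456.4 and 448.0 after GPNA and 498.6 and 496.9 after BenSer, a ratio of group means of 0.974 for GPNA and 1.07 for BenSer. Without TXNRD1 the ratio was 1.01 for GPNA and 1.18 for BenSer. The 3 genes with a response element core in a start window had BenSer differences of -0.19 (GCLM), 0.02 (TXNRD1) and 0.20 (ME1), and the 4 measured genes with a window and no core had 0.19 (GCLC), 0.33 (NQO1), 0.49 (OSGIN1) and 0.76 (AKR1C1). This is a description of 7 genes and was not tested.

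**Figure D3:**
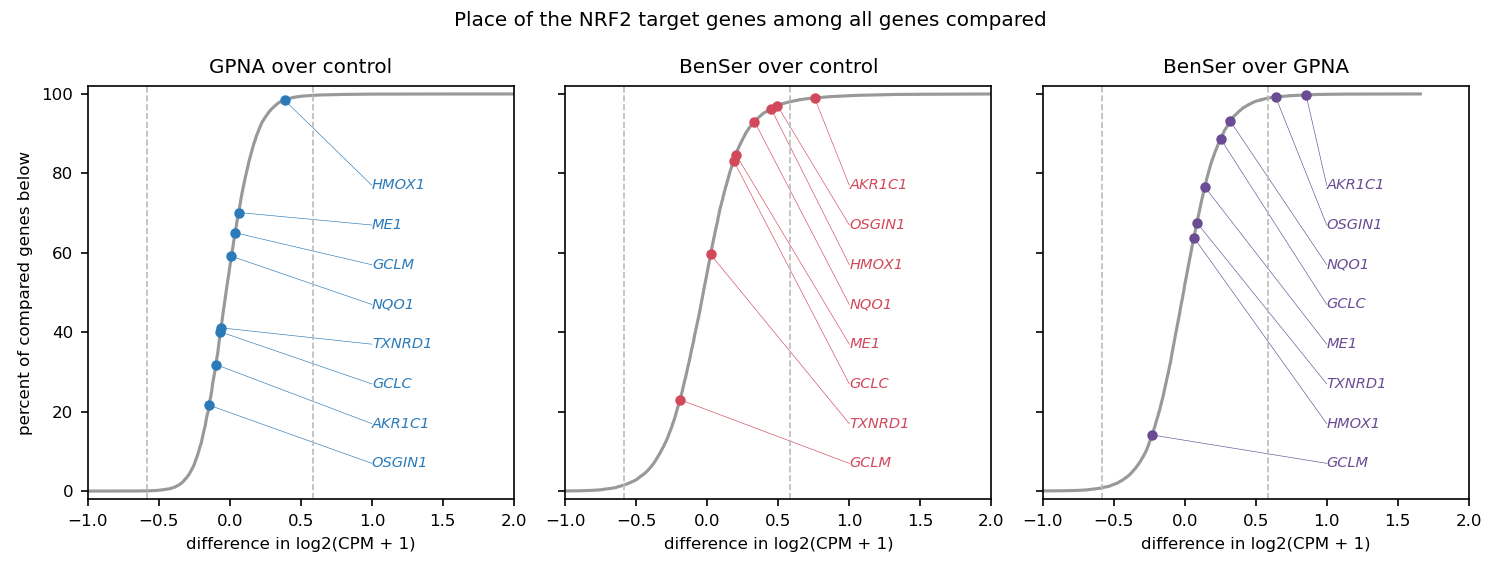
Each panel shows the cumulative distribution of the difference in log2(CPM + 1) over all genes compared (grey line, vertical axis in percent of genes below) with the 8 NRF2 target genes as points; dashed lines mark 1.5-fold. With BenSer 6 of the 8 genes lie above 83.2% or more of all genes and GCLM above 23.0%, while with GPNA the points spread from 21.6% (OSGIN1) to 98.4% (HMOX1).

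The genes whose pattern over the 3 groups was most like that of AKR1C1 were sought among 7941 other genes of at least 10 CPM in the control, by the distance between their 2 log2 differences from the control. The closest 5 were DTX4, GPRC5C, HSPA1A, ID1 and IRF1, at distances of 0.02 to 0.08. DTX4, the closest, differed from the control by -0.12 with GPNA and 0.74 with BenSer. HSPA1A, an inducible heat shock chaperone that is also listed among NRF2 targets, differed by -0.11 and 0.68. The distance is on the log2(CPM + 1) scale, which shrinks the difference of AKR1C1 more than those of these deeper genes; in CPM its BenSer ratio was 2.14 and that of HSPA1A 1.61, and with a pseudocount of 0.1 the AKR1C1 difference was 1.05 and with one of 5 it was 0.34. With only 3 groups such likeness is easily met and is a description.

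NRF2 itself and the proteins that control it were examined next, by a list of 16 genes written from general knowledge. With BenSer 12 of the 16 were higher and 4 lower, with a median of 0.15, and 1 was called higher (of all genes 44.6% were higher, 55.4% lower and 1.96% called higher, with a median of -0.03). With GPNA 5 were higher and 11 lower (43.3% and 56.7% of all genes), with a median of -0.03, and none was called. Over all genes the GPNA median was also -0.03, and only 0.34% were called higher and 0.0637% lower, so no call among 16 genes says little. NFE2L2, which encodes NRF2, measured 32.0 and 30.6 CPM in untreated cells, 28.8 and 29.8 after GPNA and 40.3 and 38.9 after BenSer. The BenSer libraries lay above the others and the ratio to the control was 1.26 (1.18 to 1.35), while with GPNA it was 0.936 (0.870 to 1.01). Its relatives NFE2L1, which controls proteasome genes, and NFE2L3 lay 1.32-fold (1.28 to 1.35) and 1.33-fold (1.28 to 1.39) above the control with BenSer. KEAP1 showed a ratio of 1.07 with BenSer (1.01 to 1.14), and its ligase partners CUL3 and RBX1 showed 0.852 (0.804 to 0.903) and 0.697 (0.549 to 0.885). SQSTM1, the autophagy receptor p62 that binds KEAP1 and is itself an NRF2 target, was the 1 gene of the list past the threshold. It measured 92.2 and 86.7 CPM in untreated cells, 92.8 and 95.6 after GPNA and 141.3 and 141.4 after BenSer, a ratio of 1.58 (1.52 to 1.64) for BenSer over control and 1.05 (1.01 to 1.10) for GPNA over control. BACH1, which competes with NRF2 for its elements, had a ratio of 1.12 (1.04 to 1.20) with BenSer, and the small MAF genes MAFF, MAFG and MAFK had ratios of 1.21, 1.16 and 1.14, of which the MAFK interval (0.922 to 1.40) included no difference. BTRC, a second ligase adaptor for NRF2, had a ratio of 1.30 (1.17 to 1.43). BACH2, DPP3, PALB2 and PGAM5 had ratios of 1.01, 1.02, 0.835 and 0.822 with BenSer, of which the first pair had intervals that included no difference.

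The 8 genes were then set beside 166 further genes of the pathway and its neighbourhood in 9 lists, of which 151 had a row. With BenSer 18 of the 151 were called higher (11.9%) and 2 lower (1.32%), compared with 1.96% and 1.58% of all genes, and their median was 0.10. With GPNA 3 of 149, namely CHAC1, SESN2 and CYP1B1, were called higher and none lower, compared with 0.34% and 0.0637% of all genes, and the median was -0.01. All 3 calls ended at a pseudocount of 5, with differences of 0.51 (CHAC1), 0.51 (SESN2) and 0.50 (CYP1B1). At a pseudocount of 0.1 the list had 4 called higher and 0 lower with GPNA, where 4.67% and 3.46% of all genes were. The GPNA excess over all genes was therefore not seen at that setting. In the comparison of BenSer with GPNA 11 of 151 were called higher and 2 lower, compared with 1.05% and 0.813% of all genes, with a median of 0.09. At a pseudocount of 0.1 the BenSer share over the control was 20 of 151 higher, compared with 6.35% of all genes, and at 5 it was 13 of 151, compared with 0.901%. The 5 BenSer calls that ended at 5 were GPX2 (0.42), SESN2 (0.57), SLC40A1 (0.33), AKR1B10 (0.36) and WIPI1 (0.56), and the lower calls of GSTA4 (-0.39) and ME2 (-0.52) ended as well. The lists were written with earlier results of these data known, so the excess in the BenSer share is a description and not independent evidence.

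**Figure D4:**
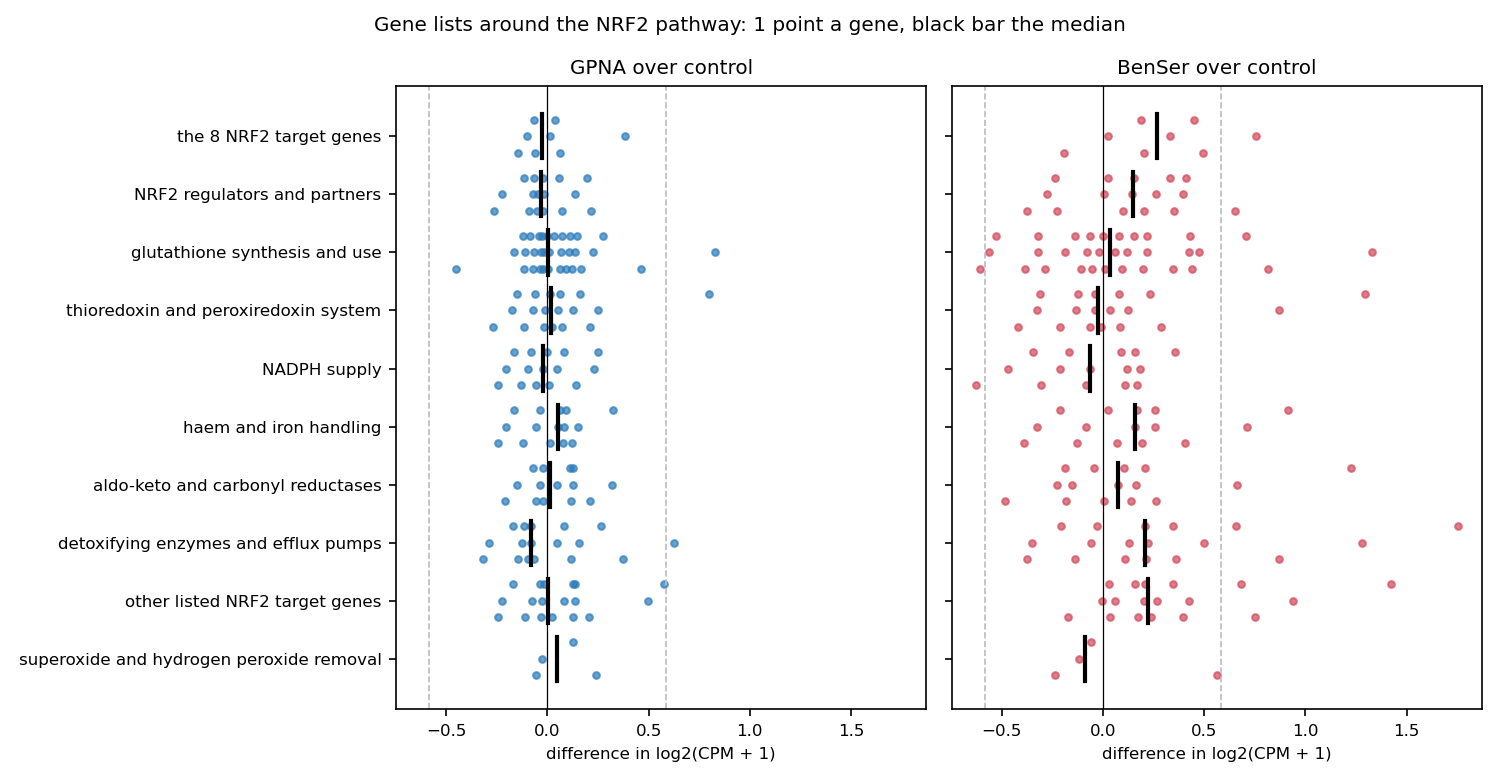
Differences in log2(CPM + 1) from the control for the 8 NRF2 target genes and 9 further lists, with GPNA on the left and BenSer on the right; each point is a gene, black bars are medians and dashed lines mark 1.5-fold. With BenSer the medians run from -0.09 (superoxide and hydrogen peroxide removal) to 0.27 (the 8 target genes), and single genes reach 1.75 (CYP1B1).

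Genes of glutathione synthesis and use gave a median of 0.03 with BenSer over 32 genes, of which 3 were called higher and 1 lower (all genes had a median of -0.03, with 1.96% called higher and 1.58% lower). CHAC1, which degrades glutathione and is known as a target of ATF4, measured 3.83 and 3.99 CPM in untreated cells, 7.60 and 7.86 after GPNA and 11.1 and 11.6 after BenSer, ratios of 1.98 (1.65 to 2.37) and 2.90 (2.46 to 3.43). SLC7A11, the cystine importer xCT shared by NRF2 and ATF4 as a target, measured 43.8 and 41.9 CPM in untreated cells, 60.9 and 58.1 after GPNA and 71.4 and 69.7 after BenSer. Its ratio was 1.65 (1.56 to 1.74) with BenSer, past the threshold, and 1.39 (1.31 to 1.47) with GPNA. Both genes lay above the control with both agents, without overlap of libraries. GPX2, a glutathione peroxidase of low level here, was the third gene called higher, at a ratio of 2.10 (1.67 to 2.66). The gene called lower was GSTA4, a glutathione transferase for lipid aldehydes, at a ratio of 0.612 (0.524 to 0.715) with BenSer; its difference of -0.61 became -0.57 with TMM scaling and -0.56 with DESeq2 size factors, under the threshold. GSTZ1, a transferase of tyrosine breakdown, had a ratio of 0.748 (0.669 to 0.836), and it was called lower for BenSer over GPNA, at 0.634 (0.571 to 0.704), a call lost without BenSer replicate 2 (a difference of -0.56 in place of -0.61). GLO1, the abundant glyoxalase that uses glutathione, had a ratio of 0.819 (0.790 to 0.849).

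Of 18 genes of the thioredoxin and peroxiredoxin system, 2 were called higher with BenSer, where 1.96% of all genes were, and the list's median was -0.03, the same as over all genes (-0.03). TXNIP, the inhibitor of thioredoxin, measured 98.9 and 95.3 CPM in untreated cells, 118 and 113.5 after GPNA and 241.2 and 237.3 after BenSer, a ratio of 2.46 (2.38 to 2.55) for BenSer. SESN2, a stress-induced sestrin, was higher 2.01-fold (1.71 to 2.36) with BenSer and 1.90-fold (1.61 to 2.25) with GPNA. PRDX6, the most abundant of the list, had a ratio of 1.02 (1.00 to 1.05) with BenSer, and PRDX3, the mitochondrial peroxiredoxin, had 0.740 (0.689 to 0.794).

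NADPH supply, the list closest to ME1, had a median of -0.06 with BenSer over 15 genes, and no gene called higher. Over all genes the median was -0.03, with 1.96% called higher and 1.58% called lower. ME2, the mitochondrial malic enzyme, was called lower at a ratio of 0.632 (0.579 to 0.689), opposite in direction to ME1. This call did not hold: the log2 difference of -0.63 fell short of the threshold without control replicate 1 (-0.50), without BenSer replicate 1 (-0.56) and, by little, with TMM scaling and DESeq2 size factors (both -0.58). TKT, a transketolase and NRF2 target of the pentose phosphate pathway, had a ratio of 0.889 (0.867 to 0.912), and MTHFD2 of mitochondrial folate metabolism had 1.29 (1.21 to 1.38).

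Beside HMOX1, the haem and iron list held 15 genes with a median of 0.16 with BenSer and 2 called higher, compared with -0.03 and 1.96% over all genes. FTH1, the ferritin heavy chain that stores iron, measured 278.6 and 289.8 CPM in untreated cells, 354.8 and 357.6 after GPNA and 532.4 and 539.0 after BenSer. Its ratio was 1.89 (1.85 to 1.92) with BenSer and 1.2535 (1.23 to 1.28) with GPNA, although 41.3% of the 50-base windows of its transcript are shared with other genes, among them its processed copies. SLC40A1, the iron exporter ferroportin, was the other gene called higher, at a log2 difference of 0.71. BLVRA, which reduces biliverdin made by haem oxygenase, had a ratio of 0.749 (0.681 to 0.824) with BenSer.

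The aldo-keto and carbonyl reductases, the list closest to AKR1C1, had a median of 0.07 with BenSer over 15 genes, and 2 were called higher, AKR1C3 and AKR1B10 (all genes: median -0.03, 1.96% called higher). AKR1B10, a reductase of retinal and lipid aldehydes, had a ratio of 1.79 (1.46 to 2.22) with BenSer. PTGR1, which inactivates leukotrienes and prostaglandins, had 1.05 (0.989 to 1.12), and CBR4, a mitochondrial carbonyl reductase, had 0.701 (0.641 to 0.766).

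The detoxifying enzymes and efflux pumps had a median of 0.21 with BenSer over 18 genes, 4 of them called higher, where all genes had a median of -0.03 and 1.96% called higher. CYP1B1, at 12.4 and 12.9 CPM in untreated cells, 20.7 and 19.4 after GPNA and 43.9 and 46.2 after BenSer, had the largest BenSer difference of all listed genes, at a ratio of 3.56 (3.26 to 3.90). Its GPNA call was near the threshold, with a log2 difference of 0.62. Without GPNA replicate 1 the difference was 0.580, just under the threshold of 0.585, so the call ended. ALDH3A1, an aldehyde dehydrogenase that like CYP1B1 is known as a target of the aryl hydrocarbon receptor, had 2.52 (2.32 to 2.74). EPHX1, the microsomal epoxide hydrolase, was higher 1.59-fold (1.51 to 1.68) with BenSer and lower with GPNA at 0.902 (0.847 to 0.960). ABCC3, an exporter of glucuronide and glutathione conjugates, was higher 1.85-fold (1.75 to 1.95) with BenSer and 1.30-fold (1.23 to 1.38) with GPNA. ALDH3A2 and ALDH7A1, a pair of further aldehyde dehydrogenases, had BenSer ratios of 1.42 (1.36 to 1.47) and 0.765 (0.714 to 0.819).

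Of 18 other listed NRF2 targets, 16 were higher and 2 lower with BenSer, with a median of 0.22, and 4 were called higher, compared with 44.6%, 55.4%, -0.03 and 1.96% over all genes. These were GDF15, a stress-induced cytokine, at a ratio of 2.82 (2.57 to 3.11), ABHD4 at 1.9985 (1.80 to 2.22), WIPI1, an autophagy protein, at 1.77 (1.57 to 1.99), and HSPA1A at 1.61 (1.54 to 1.69). Whether NRF2 or another factor set these differences was not tested. NAMPT, the most abundant of the list, had a ratio of 1.02 (0.986 to 1.06), and SLC12A4, a potassium and chloride cotransporter, had 0.880 (0.795 to 0.974). With GPNA the same list had 9 genes on each side of 0 and none called, where 43.3% of all genes were higher, 56.7% lower, 0.34% called higher and 0.0637% called lower. WIPI1 came closest to a GPNA call, at a mean of 8.29 CPM in untreated cells and 12.9 after GPNA. Its log2 difference of 0.576 lay just under the threshold of 0.585. CAT, the catalase that removes hydrogen peroxide, was higher 1.49-fold (1.41 to 1.57) with BenSer, just under the threshold on the log2 scale, whereas the superoxide dismutases SOD1 and SOD3 had ratios of 0.919 (0.888 to 0.951) and 0.820 (0.691 to 0.973).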

How the data were processed

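The authors prepared stranded total RNA libraries from PC-3 cells and, per the labels' processing notes and the study's methods, mapped reads to hg19/GRCh37.p13 with TopHat2 and Bowtie2 and counted them per gene with HTSeq 0.6.2p2. The value columns deposited by the authors are named as counts but hold CPM, reads divided by the library total; 100% of values were whole reads over that total within 0.001 read, so reads were recovered. The study's methods describe 4 replicates per group and each table holds 4 value columns per group, but only columns 1 and 2 match a label; 8 further column entries (6 distinct) were not used. The deposited fold changes, p-values and false discovery rates of the authors' own comparisons were not used. Whether the strand was used in counting is not given in the sources used here, so overlapping antisense genes cannot be told apart.

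Means of the 2 libraries were compared as differences in log2(CPM + 1) over genes that averaged 5 reads or more in one of the groups compared, with a 1.5-fold threshold. Single genes were given a ratio of merged CPM with an exact (Clopper-Pearson) 95% interval. Nothing in the labels says that the libraries came from separate cultures. The comparison was tested on simulated data. Alternatives used limma 3.58.1, edgeR 4.0.16 and DESeq2 1.42.0 in R 4.3.3; other steps used Python 3.11.15 with pandas 2.3.3 and scipy 1.17.1. Members and lists were chosen with earlier results of these data known. Named genes were all members, the 16 regulators of at least 1 CPM, listed genes of at least 5 CPM that differed 1.5-fold, and of each list the most abundant and the furthest up and down with BenSer; GPX2, SLC40A1 and AKR1B10, below 5 CPM, were named after their values were seen.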

Additional observations from a re-analysis of the deposited data

How the results depend on the processing

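The lowest members set the limit of depth, and AKR1C1 alone carried the BenSer call. No member changed the direction of its BenSer differences under the 13 alternatives tried; with GPNA the sign turned for GCLM under 1 and for NQO1 under 2 of 13. Counts in this paragraph are of genes past the fold threshold. With a pseudocount of 5 in place of 1, 0 members were called higher with BenSer against the control or against GPNA, the medians were 0.23 and 0.18, and of the wider list 0 were called higher with GPNA and 0 lower in both BenSer comparisons, and 13 were called higher with BenSer, where all genes gave 0.901% higher and 0.538% lower with BenSer, 0.154% and 0.0106% with GPNA, and 0.415% and 0.199% for BenSer over GPNA. With a pseudocount of 0.1, 5 (over control) and 4 (over GPNA) of the wider list were lower, where the share of all genes rose to 7.36% and 6.52% lower and to 6.35% and 4.88% higher. TMM scaling put the members' median at 0.014 with GPNA, in place of -0.03, and that of all genes at 0.002, in place of -0.028; the members' GPNA median was also above 0 with DESeq2 size factors, a 50-read filter, edgeR and without AKR1C1 or control replicate 2 (0.0099 to 0.013). TMM put it at 0.31 with BenSer, and DESeq2 size factors put it at 0.31 with BenSer and 0.21 for BenSer over GPNA. Under both scalings 0 of the wider list were lower with BenSer, where 1.13% (TMM) and 1.10% (DESeq2) of all genes were. With GPNA both scalings called 4 of the wider list higher in place of 3, where 0.436% and 0.425% of all genes were higher. At a looser threshold (0.32 on the log2 scale), 1 member was higher with GPNA and 4 with BenSer, and the wider list had 8 higher and 1 lower with GPNA, 36 and 16 with BenSer, and 27 and 13 for BenSer over GPNA. At 2-fold no member was called (0 in each comparison), and the wider list had 0 higher with GPNA, 6 higher and 0 lower with BenSer, and 3 and 0 for BenSer over GPNA; of all genes 0.0425% were higher with GPNA, 0.437% higher and 0.0474% lower with BenSer, and 0.105% and 0.0525% for BenSer over GPNA. The looser threshold called 2.86% of all genes higher and 2.74% lower with GPNA, 7.36% and 10.3% with BenSer, and 6.86% and 7.08% for BenSer over GPNA. Without AKR1C1, left out after seeing the data, 0 members were called with BenSer and 1 for BenSer over GPNA, with medians of 0.20 and 0.14.

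Leaving out 1 library at a time gave 1 to 2 members called higher with BenSer over control and 1 to 2 over GPNA, medians from 0.26 to 0.29 with BenSer over control, and 1 to 2 genes of the wider list called lower in either BenSer comparison; of all genes 1.99% to 2.17% were then higher and 1.69% to 1.84% lower over the control, and 1.11% to 1.19% and 0.924% to 0.997% over GPNA. Taking the libraries as separate samples compares these libraries and not the treatments, and calls are then at a Benjamini-Hochberg adjusted p under 0.05 with no fold threshold. limma called 4 members higher in each BenSer comparison, 0 of the wider list with GPNA, and of the wider list 37 higher and 21 lower with BenSer and 33 and 16 for BenSer over GPNA, where it called 9.68% of all genes higher and 14.0% lower, and 9.57% and 9.59%; with GPNA it called 0.0106% and 0% of all genes, so its 0 there says nothing about the list. edgeR's quasi-likelihood test called 1 member higher with GPNA, 7 higher and 1 lower with BenSer, and 6 and 1 for BenSer over GPNA, with medians of 0.32 and 0.21. Of the wider list it called 28 higher and 13 lower with GPNA, 69 and 28 with BenSer, and 61 and 28 for BenSer over GPNA; of all genes it called 6.90% and 8.25%, 18.3% and 17.6%, and 17.8% and 15.9%. With a replicate block in limma, 3 members were higher with BenSer and 0 for BenSer over GPNA. Of the wider list, the replicate block left 0 higher with GPNA, 34 higher and 15 lower with BenSer, and 0 in both directions for BenSer over GPNA; of all genes it called 5.85% higher and 8.17% lower with BenSer but 0% in both directions with GPNA and for BenSer over GPNA, so its zeros there say nothing about the members or the list. Deviations of same-numbered libraries correlated at 0.002 to 0.036. Libraries of a group scattered almost as random sampling gives, so this could not show whether the numbers pair the libraries.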
